A study of Mus musculus with 12 samples.

Results

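The genes described here are 9 transcription factor genes that form the core of the pluripotency network of mouse embryonic stem cells: Pou5f1 (which encodes Oct4), Sox2, Nanog, Esrrb, Tfcp2l1, Prdm14, Zfp42 (Rex1), Sall4 and Tbx3. They were chosen by name, and 8 of the 9 had at least 1 mapped insertion among the 20409 genes counted. Sox2 had 0 rows in any insertion list. It is annotated at chr3:34650405-34652461 (mm10) with 1 exon, and insertions were only assigned to exons other than the first, so the assay as processed could not score it.

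Pluripotency factors bind enhancers of one another's genes and of many other genes, and together hold embryonic stem cells in a self-renewing state. Pou5f1 and Sox2 bind DNA side by side through a POU domain and an HMG box, Nanog is a homeodomain protein, Esrrb is an orphan nuclear receptor with a zinc-finger DNA-binding domain, and Tfcp2l1 belongs to the CP2 branch of the grainyhead-like factors and acts downstream of LIF signalling. Prdm14, Zfp42 and Sall4 are zinc-finger proteins, and Tbx3 is a T-box factor. Many of these proteins are found in complexes with co-activators as well as co-repressors such as NuRD, so what such a protein does when it is brought to a single reporter is a question apart from where it binds in the genome.

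In ORFtag a retroviral cassette with a PGK promoter, a neomycin resistance gene, an IRES, a protein tag and a splice donor integrates in the genome and splices into the next downstream exon, which makes the cell produce a tagged protein from the normal gene locus. A mixture of 3 frame versions was used. The cells of all groups were feeder-free diploid mouse embryonic stem cells, derived from the originally haploid line HMSc2 (AN3-12 in the study's methods) and grown in serum with LIF, so the 9 genes belong to the network that these cells use. Each screen used 1 clonal GFP reporter line. In the activator screen, the tag was the DNA-binding protein TetR with a nuclear localization signal, the reporter was silent, with TetO sites before a minimal promoter, and GFP-positive cells were sorted. In the repressor screen, TetR was the tag again, the TetO reporter was constitutively active, and cells with low GFP were sorted. The PTGR screen, named for post-transcriptional gene regulators, tagged proteins with the λN peptide, which binds boxB hairpins in the reporter mRNA. Cells with low GFP were sorted repeatedly with growth in between, boxB was then removed by Cre recombinase switched on with 4-hydroxytamoxifen, and cells whose GFP had recovered were sorted last. Each screen had 2 sorted and 2 unsorted libraries, which makes 12 libraries in 6 groups. The unsorted cells were taken after G418 selection, so in the PTGR screen effects of sorting and of the further time in culture cannot be told apart. For the activator and repressor screens the methods describe sorting of the remaining cells and state no further time in culture. Genomic DNA was mapped, so RNA markers of the cells were not measured, and an insertion states where the cassette lay, not that a fusion protein was made.

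The sorted libraries held 14705 to 17397 insertions in the activator screen, 15204 to 22266 in the repressor screen and 58560 to 60980 in the PTGR screen, and the 6 unsorted libraries held 54088 to 233799. The 6 unsorted libraries together, 1022126 insertions, are called the background, and all 3 screens were compared with this same background. Levels below are insertions in the direction that can give a fusion (sense), at most 200 kb before the exon, per 10000 such insertions of the library. Odds ratios compare a gene's share of the insertions in sorted cells with its share in the background. A gene was called enriched when one-sided Fisher's exact test, adjusted by the Benjamini-Hochberg method over all genes tested, gave p under 0.001 with a log2 odds ratio of at least 1, and called depleted with the opposite one-sided test and a log2 odds ratio of at most −1. Merged libraries leave out the spread between replicates, and therefore edgeR on the separate libraries stands beside the calls.

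The members were frequent landing sites. The background held 139 insertions at Prdm14, 283 at Pou5f1, 373 at Zfp42, 378 at Tfcp2l1, 401 at Nanog, 416 at Esrrb, 430 at Sall4 and 491 at Tbx3, where the median gene held 15. Each member had more insertions than at least 89.7% of all genes, and Tbx3 had more than 99.2%. From these shares, 4.37 to 15.4 insertions per member would be found in the merged sorted libraries of the activator screen, 5.10 to 18.0 in those of the repressor screen and 16.3 to 57.4 in those of the PTGR screen if sorting changed nothing. A shift of a few insertions at 1 gene was thus not detectable in the first 2 screens.

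The splice acceptors that the results turn on are shown first, because the cassette splices into them and the exon they open decides which part of the protein follows the tag. Each sequence is the plus strand of GRCm38 (mm10), 5′ to 3′, and all 3 genes lie on the plus strand. Capitals mark the first bases of the exon, and the lower-case part is the end of the intron before it.
Esrrb exon 2, chr12:86470126-86470155: cccgcgttctgtgttcgcagGCTGCTGAAC
Esrrb exon 3, chr12:86488527-86488556: ccatctctctgtcattgcagGCAACATCGA
Esrrb exon 4, chr12:86505795-86505824: atatctttcttgtctgacagGTGTGCGCCT
Esrrb exon 5, chr12:86506329-86506358: tccctgtttggtcgttacagTGACTAAGAT
Tfcp2l1 exon 2, chr1:118632222-118632251: ctgattcctgtgttttgcagTGATGTGCTG
Tfcp2l1 exon 3, chr1:118652281-118652310: gtattaccttcttccctcagGTCAGTCGTA
Pou5f1 exon 2, chr17:35509083-35509112: gtctgcctttctcactacagTCCCAGGACA
All 7 introns end in the ag of a splice acceptor, and 13 to 15 of the 18 bases before it are pyrimidines. These are general features of splice acceptors, so sharing them says little about how the 7 differ. The sorted cells differed in which of these exons their insertions were assigned to, and the part of the acceptor in this was not tested.

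Each screen gave a different answer for the members. Esrrb and Tfcp2l1 were called enriched in cells that had silenced the TetO reporter, Pou5f1 was called enriched in the PTGR screen, where Esrrb and Tfcp2l1 were called depleted, and 0 members were called enriched in the activator screen. Nanog, Prdm14, Zfp42, Sall4 and Tbx3 were called in 0 of the 3 screens by these tests.

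**Figure D1:**
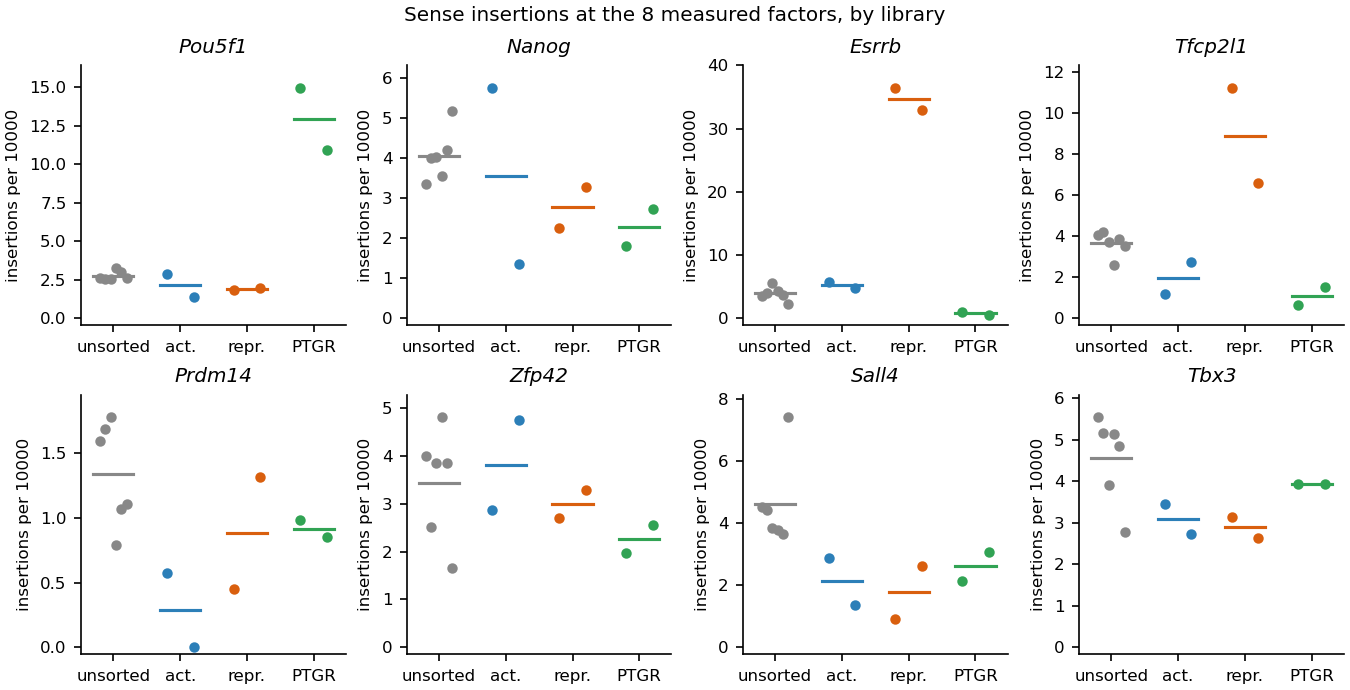
Sense insertions per 10000 insertions of the library (vertical axis, linear, a separate scale per gene) for the 8 members with insertions, in the 6 unsorted libraries and the 2 sorted libraries of each screen. Points are libraries and short lines are group means. Both repressor libraries at Esrrb (32.9 and 36.4) and both PTGR libraries at Pou5f1 (10.9 and 14.9) lie far above the unsorted libraries, and both PTGR libraries at Esrrb and at Tfcp2l1 lie below them.

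Esrrb was the most strongly enriched member in the repressor screen. The sorted libraries held 32.9 and 36.4 Esrrb insertions per 10000 (34.6 ± 2.47, SD, n = 2), from 50 and 81 insertions. The 6 unsorted libraries ranged from 2.22 to 5.62 with a median of 3.79 (3.89 ± 1.11, SD, n = 6). The groups did not overlap, and the mean level was 8.91 times that of the background. The log2 odds ratio of 3.11 ± 0.14 (SE from counting error) passed the test (adjusted p = 1.87e-66). In this screen 8.18% of the 2346 genes tested were called enriched, and 2 members were among them. Among the 192 genes called, Esrrb ranked 39 by the number of sorted insertions and 147 by odds ratio, so most of the called genes had larger ratios. edgeR's quasi-likelihood test on the separate libraries, which called 7.2% of genes higher, gave a log2 fold change of 3.61 (adjusted p = 1.10e-47), and DESeq2, which called 5.18%, gave 3.13 (adjusted p = 5.68e-16).

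The Esrrb insertions lay at many positions. The 81 and 50 positions made up 109 distinct positions, of which 22 occurred in both sorted libraries and 16 in an unsorted library of the screen. The tests counted each of the 22 in both libraries, and whether these were separate insertions was not tested. Counting positions within 5 bp of each other in a library as 1 left 117 of 131. All 131 lay in introns of the gene, which spans chr12:86361117-86521628 with 7 exons, where 403 of 416 background insertions did. The insertions were at a median of 2526 bp before the exon in sorted cells and 7842 bp in the background.

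Esrrb insertions in the repressor-sorted cells were nearly all before 1 exon. Exon 4 was the assigned exon of 121 of 131 insertions (92.4%), with 48 of 50 and 73 of 81 in the separate libraries, against 155 of 416 (37.3%) in the background. The shares differed by two-sided Fisher's exact test on exon 4 against all other exons (adjusted p = 1.08e-29). This test called 20.7% of the genes tested in the repressor screen, and 2 of the 5 members tested. The level of insertions before exon 4 was 32.2 ± 0.859 per 10000 (SD, n = 2) in sorted cells and 1.42 ± 0.529 (SD, n = 6) in the background, a ratio of 22.6. Before exon 2 the levels were 1.00 ± 0.488, from 4 insertions, and 0.971 ± 0.339, which did not differ beyond the spread. The median gene with at least 100 background insertions had a log2 odds ratio of −1.34 in this screen. An equal level is thus not that of the typical gene. Before exon 3 the sorted libraries held 0 insertions, where the background level was 1.15 ± 0.283 and its count 115. A count of 0 allows up to 3 insertions.

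The exon at which the fusion begins sets how much of Esrrb follows the tag. In GENCODE vM21 the protein of 454 codons has 16 codons (3.67%) upstream of exon 2, 153 (33.8%) upstream of exon 3, 192 (42.4%) upstream of exon 4 and 229 (50.5%) upstream of exon 5. Nuclear receptors bind DNA through a pair of zinc fingers, and the corresponding cysteine patterns lay at residues 124 to 144, encoded in exon 2, and residues 160 to 179, encoded in exon 3. A fusion at exon 4 thus holds neither pattern and keeps the remaining part of the protein in which nuclear receptors have the ligand-binding domain. Whether such a fusion protein was made and in which frame was not measured.

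**Figure D2:**
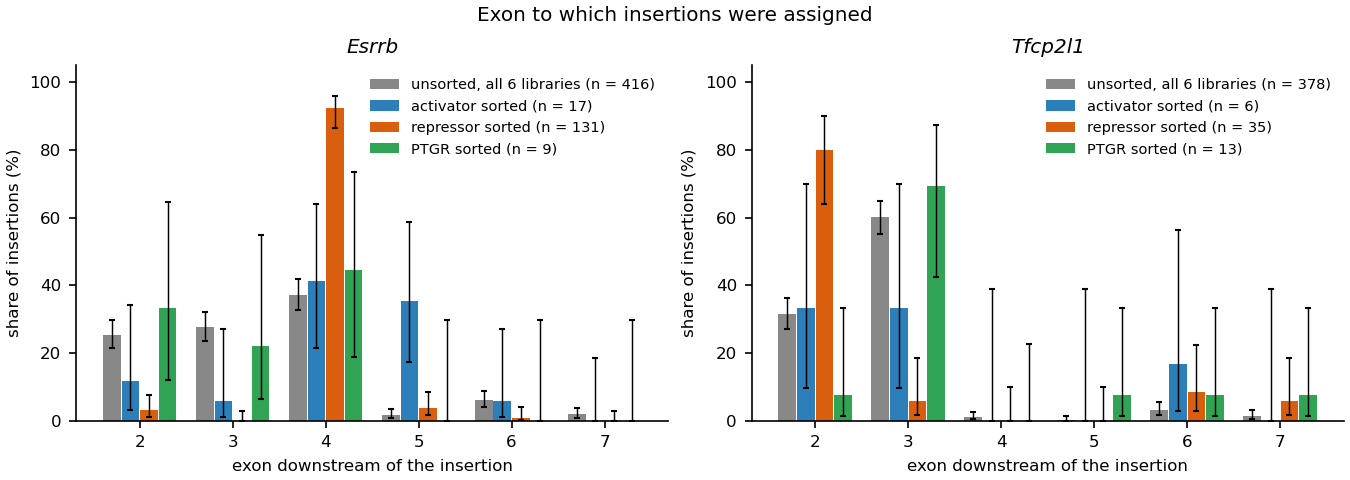
Share of sense insertions assigned to exons 2 to 7 (horizontal axis) of Esrrb and Tfcp2l1, in percent (vertical axis), in the merged unsorted libraries (the background) and the merged sorted libraries of each screen. Bars start at 0 and whiskers are 95% Wilson intervals, which cover counting error only. In repressor-sorted cells most Esrrb insertions were at exon 4 (92.4%, background 37.3%) and most Tfcp2l1 insertions at exon 2 (80%, background 31.5%), while the other sorted sets hold 6 to 17 insertions and have wide intervals.

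Tfcp2l1 was the second member enriched in the repressor screen, at a lower level and with wider spread. The sorted libraries held 6.58 and 11.2 insertions per 10000 (8.90 ± 3.29, SD, n = 2), from 10 and 25 insertions, and the unsorted libraries 2.60 to 4.19 with a median of 3.79. Both sorted libraries were above all unsorted ones, and their mean was 2.44 times that of the background. The log2 odds ratio of 1.34 ± 0.26 passed the test (adjusted p = 3.31e-05), and Tfcp2l1 ranked 104 by insertions and 192 by odds ratio of the 192 genes called. edgeR gave a log2 fold change of 2.37 (adjusted p = 9.56e-10) and DESeq2 1.88 (adjusted p = 0.00218). The call was lost without repressor sorted replicate 1, the deeper of the pair, where Fisher's exact test gave a log2 odds ratio of 0.83 (adjusted p = 0.212).

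The Tfcp2l1 insertions of the repressor-sorted cells also differed in place from the background. They were assigned to exon 2 in 28 of 35 cases (80%), in 18 of 25 and 10 of 10 in the separate libraries, against 119 of 378 (31.5%). Exon 3, which is the most used exon in the background with 227 of 378 (60.1%), took 2 of 35 (5.71%), and this share differed by two-sided Fisher's exact test (adjusted p = 1.45e-09). Per 10000 insertions the level before exon 2 was 7.33 ± 1.07 (SD, n = 2) against 1.13 ± 0.431 (SD, n = 6), a ratio of 6.51, while that before exon 3 was 0.449 ± 0.635 against 2.19 ± 0.386. Of the protein's 479 codons, 20 (4.31%) lie upstream of exon 2 and 71 (14.9%) upstream of exon 3, so both kinds of fusion would keep most of the protein. Most of these insertions, 27 of 35 (77.1%), lay upstream of the annotated gene (chr1:118627945-118685168, 15 exons), against 108 of 378 (28.6%) in the background. The 10 and 25 positions were 35 distinct ones, 0 were in both libraries, and 33 were left after merging positions within 5 bp.

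The other 6 members with insertions were not called in the repressor screen. Their log2 odds ratios lay between −1.39 and −0.31, where the median of the 2986 genes with at least 100 background insertions was −1.34. The lowest was Sall4, with 2 and 4 insertions (one-sided Fisher's exact test of depletion, adjusted p = 0.128). Depletion was called for 0 members, where Fisher's exact test called 0.0831% of the 12033 genes tested, edgeR 1.15% and DESeq2 0.402%, and 1 member (Sall4) had an unadjusted p under 0.05 in Fisher's test.

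**Figure D3:**
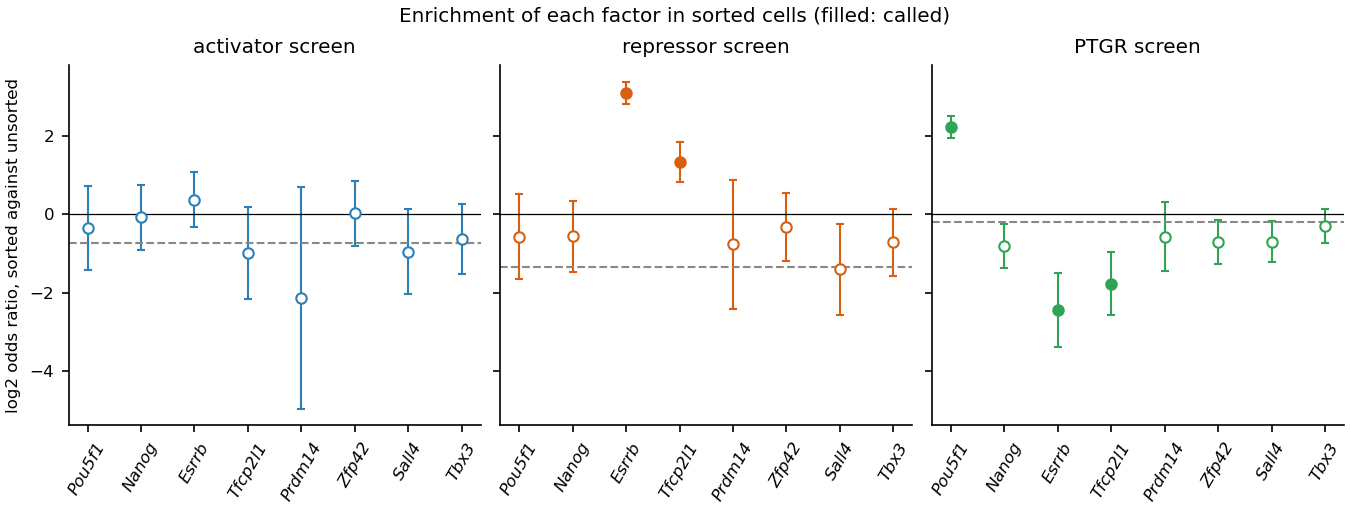
Log2 odds ratio of sorted against background insertions (vertical axis) for the 8 members (horizontal axis) in the 3 screens. Points are estimates from merged libraries, whiskers are 1.96 standard errors from counting error, filled points passed the test of enrichment or depletion, and the dashed line is the median of the 2986 genes with at least 100 background insertions (−0.73, −1.34 and −0.20). Esrrb (3.11) and Tfcp2l1 (1.34) stand highest in the repressor screen and lowest in the PTGR screen, where Pou5f1 stands highest (2.23).

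Pou5f1 was the member enriched in the PTGR screen. The sorted libraries held 10.9 and 14.9 insertions per 10000 (12.9 ± 2.82, SD, n = 2), from 64 and 91 insertions, and the 6 unsorted libraries 2.50 to 3.22 (2.74 ± 0.295, SD, n = 6). The groups did not overlap, and the mean level was 4.71 times that of the background. The log2 odds ratio of 2.23 ± 0.14 passed the test (adjusted p = 3.19e-41), where 0.666% of the 9303 genes tested were called enriched. Pou5f1 ranked 11 by sorted insertions and 43 by odds ratio of the 62 genes called. edgeR, which called 2.24% of genes higher, gave a log2 fold change of 2.29 (adjusted p = 1.51e-09), and DESeq2, which called 0.492%, gave 2.23 (adjusted p = 1.55e-05).

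The same locus was also enriched when the strand was turned around. Insertions assigned with the strand reversed point away from the gene's exons and cannot give a fusion by the scheme above. At Pou5f1 there were 121 such insertions in the PTGR-sorted libraries, 71 and 50, and 300 in the background, a log2 odds ratio of 1.80 ± 0.16 (one-sided Fisher's exact test, adjusted p = 8.28e-23). The reversed assignment called 0.5% of the genes tested in this screen. Pou5f1 was the single member called in it, and 0 members were called in the other 2 screens, where 3.14% (activator) and 5.61% (repressor) of genes were. The share of sense insertions at Pou5f1 in PTGR-sorted cells was 56.2% (155 of 276, 95% Wilson interval 50.3% to 61.9%) against 48.5% in the background, and these did not pass the test (two-sided Fisher's exact test, adjusted p = 0.680, unadjusted 0.0408). For 1.11% of the genes tested in this screen the sense share differed, and for 0 of 8 members, and exon use for 0.751% and 0 of 6.

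Most Pou5f1 insertions lay just before the gene (chr17:35506018-35510772, 5 exons). In PTGR-sorted cells 131 of 155 (84.5%) lay upstream of it, against 254 of 283 (89.8%) in the background. Within 10 kb of the exon lay 126 of 155 (81.3%), against 172 of 283 (60.8%). All 155 were assigned to exon 2, as were 281 of 283 in the background. Of the 352 codons, 128 (36.4%) lie upstream of exon 2, so a fusion at this exon would lack the first part of Oct4 and keep the POU domain and homeodomain. The reversed insertions were as close: 38 of 121 lay within 5 kb and 63 between 5 and 10 kb, where 45 and 134 of 300 did in the background. The nearest gene to which a cassette in the other direction could splice at these positions was Nfkbil1, at 241 to 275 kb and thus beyond the limit of 200 kb. The 155 sense insertions were 152 distinct positions, of which 3 occurred in both libraries, and 147 were left after merging within 5 bp.

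**Figure D4:**
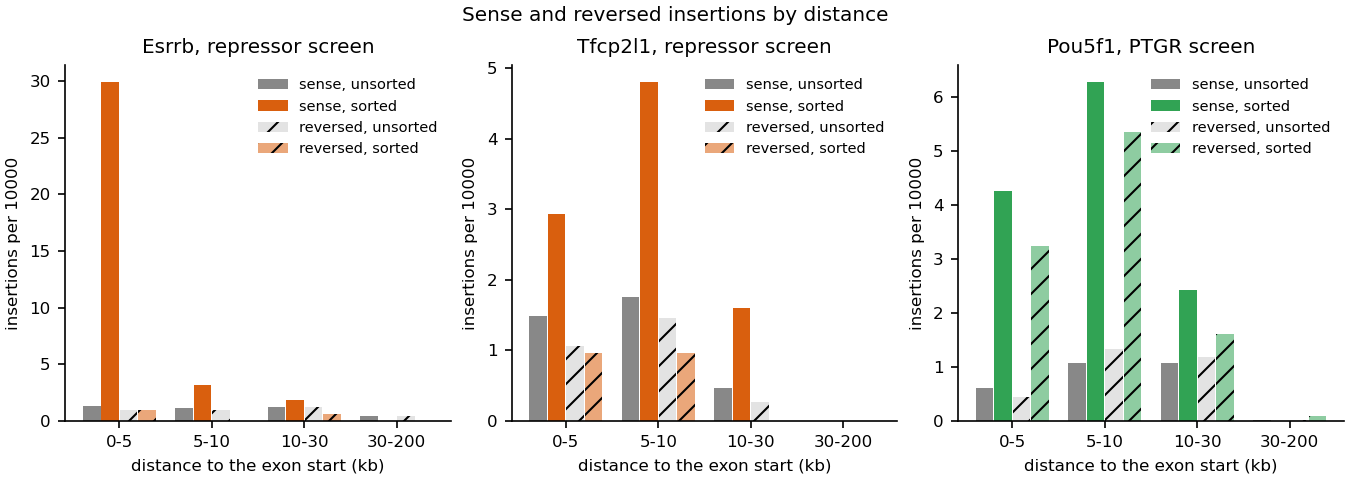
Insertions per 10000 (vertical axis) by distance to the assigned exon (horizontal axis, bins of 0 to 5, 5 to 10, 10 to 30 and 30 to 200 kb), for Esrrb and Tfcp2l1 in the repressor screen and Pou5f1 in the PTGR screen, sense and reversed, in merged sorted libraries and in the merged background. At Pou5f1 the sorted libraries exceed the background in both directions (155 sense and 121 reversed insertions), while at Esrrb they do so in the sense direction (131 sense and 5 reversed).

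The direction of insertions at Esrrb and Tfcp2l1 in the repressor screen differed from that at Pou5f1 in the PTGR screen. At Esrrb 131 of 136 insertions in repressor-sorted cells were sense (96.3%, 95% Wilson interval 91.7% to 98.4%), against 53.8% in the background (two-sided Fisher's exact test, adjusted p = 1.90e-24). The 5 reversed ones gave a log2 odds ratio of −1.13 ± 0.65. At Tfcp2l1 35 of 41 were sense (85.4%, 71.6% to 93.1%), against 57.2% (Fisher's exact test, adjusted p = 0.00119), and the 6 reversed ones gave −0.53 ± 0.60. The sense share differed for 30.4% of the genes tested in the repressor screen and for 2 of the 6 members tested.

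**Figure D5:**
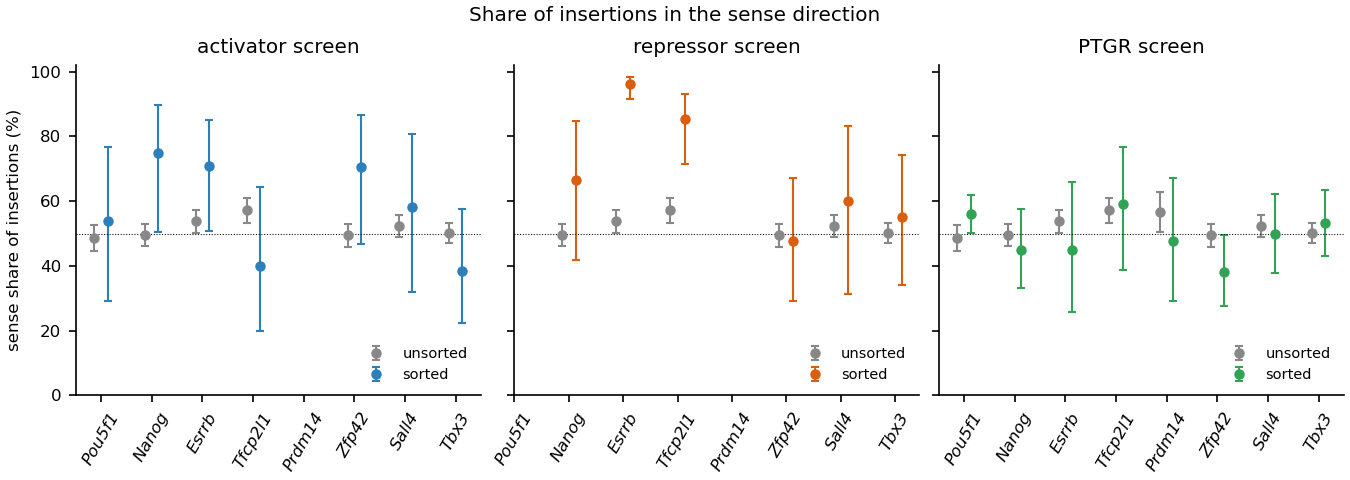
Share of sense insertions among sense and reversed insertions together, in percent (axis from 0 to 100), for members with at least 10 sorted insertions of both directions in a screen, in sorted cells and in the background, with 95% Wilson intervals that cover counting error only. The dotted line marks equal numbers in both directions. Esrrb (96.3% against 53.8%) and Tfcp2l1 (85.4% against 57.2%) in the repressor screen are the 2 members whose shares passed the test.

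Esrrb and Tfcp2l1, the members enriched among repressor-sorted cells, were less frequent in PTGR-sorted cells than before sorting. At Esrrb the PTGR-sorted libraries held 0.512 and 0.984 insertions per 10000 (0.748 ± 0.333, SD, n = 2), from 3 and 6 insertions, which is below all 6 unsorted libraries, whose mean was 5.19 times higher. The log2 odds ratio of −2.43 ± 0.49 passed the depletion test (adjusted p = 1.32e-07). At Tfcp2l1 the libraries held 0.656 and 1.54 (1.10 ± 0.623, SD, n = 2), from 4 and 9 insertions, again below all unsorted libraries, with a background mean 3.33 times higher. Its log2 odds ratio of −1.77 ± 0.41 passed as well (adjusted p = 0.000174). Depletion was called for 0.0914% of the 12033 genes tested, which is 11 genes, and Esrrb and Tfcp2l1 had the lowest and second lowest log2 odds ratio of these. All 11 had at least 378 background insertions, while 2986 genes in all had at least 100. The share over all genes tested thus includes many with little room for a call. Both calls were lost without either PTGR sorted replicate, since Fisher's exact test gave Esrrb −2.99 (adjusted p = 0.00227) without replicate 1 and −2.05 (0.0137) without replicate 2, and gave Tfcp2l1 −1.27 (0.493) and −2.50 (0.00777). Against the PTGR screen's own unsorted libraries the sense values were −2.16 ± 0.50 at Esrrb (Fisher's exact test, adjusted p = 0.000361) and −1.80 ± 0.42 at Tfcp2l1, which did not pass (0.00113). edgeR called both with log2 fold changes of −1.95 (adjusted p = 0.00301) and −1.66 (adjusted p = 0.0116), where it called 0.236% of genes lower, while DESeq2 called 0 genes (0%) lower in this screen.

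Reversed insertions at both genes were also fewer in PTGR-sorted cells than in the merged background, but the size of this difference depended on which unsorted libraries were compared. Reversed insertions at Esrrb were 11 in PTGR-sorted cells and 357 in the background, a log2 odds ratio of −1.92 ± 0.44 that passed the same depletion test (Fisher's exact test, adjusted p = 0.000115), as did 0.0675% of genes. At Tfcp2l1 they were 9 and 283, with −1.87 ± 0.49, which did not pass (Fisher's exact test, adjusted p = 0.00204). Against the unsorted libraries of the PTGR screen alone, neither passed, with −1.59 ± 0.46 at Esrrb (Fisher's exact test, adjusted p = 0.0638) and −0.95 ± 0.53 at Tfcp2l1 (0.684). Reversed Tfcp2l1 insertions were at 0.670 and 0.863 per 10000 in PTGR-sorted cells and at 1.30 and 1.52 in the unsorted cells of that screen. In the unsorted cells of the other screens they were at 3.59 and 4.36 (activator) and at 1.48 and 3.78 (repressor). The PTGR-sorted cells had grown and been sorted more often than the unsorted cells, and the part of growth in these values was not tested.

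The other members in the PTGR screen had log2 odds ratios from −0.80 to −0.29, where the median gene with at least 100 background insertions was at −0.20. Nanog had −0.80 ± 0.29 (1.80 and 2.73 per 10000; Fisher's exact test of depletion, adjusted p = 0.255), Sall4 −0.70 ± 0.27 (2.13 and 3.07; 0.339) and Zfp42 −0.69 ± 0.29 (1.97 and 2.56; 0.438). Prdm14 had −0.56 ± 0.45, from 6 and 5 insertions, and Tbx3 −0.29 ± 0.22 (3.93 and 3.94 per 10000). Both sorted libraries lay below all 6 unsorted ones at Nanog (3.36 to 5.18 unsorted) and Sall4 (3.64 to 7.40 unsorted), and within their range at Zfp42, Prdm14 and Tbx3. The share of all genes with such a separation was not counted, so it is not read as a result about these members. Of these 5, 0 were called. In Fisher's test on merged libraries, Nanog, Sall4 and Zfp42 had an unadjusted p under 0.05, and the share of all genes under it was not counted. On the separate libraries, edgeR gave unadjusted p of 0.0178, 0.0247 and 0.379 for them, and DESeq2 0.0550, 0.0603 and 0.571.

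Sall4 crossed the threshold under a shorter reach. With insertions counted up to 50 kb from the exon, 7 lay in PTGR-sorted cells, 2 and 5, against 269 in the background, a log2 odds ratio of −2.18 ± 0.55 (Fisher's exact test, adjusted p = 0.000705), where 0.0593% of genes were called. Beyond 50 kb lay 11 and 13, and the median distance was 88312 bp in sorted cells against 25214 bp in the background. All 430 background insertions of Sall4 were assigned to exon 2, with 39 of 1067 codons upstream.

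In the activator screen 0 of the 7 members tested were called enriched, while 4.64% of the 2842 genes tested were. The count was also 0 by edgeR, which called 4% of genes higher, and by DESeq2, which called 2.76%, and 0 had an unadjusted p under 0.05 in Fisher's test. Esrrb had the highest log2 odds ratio, 0.38 ± 0.36, with 4.76 and 5.75 insertions per 10000, of which the second lies just above the range of the unsorted libraries. Zfp42 had 0.03 ± 0.42, Nanog −0.07 ± 0.42, Pou5f1 −0.34 ± 0.55, Tbx3 −0.63 ± 0.46, Sall4 −0.95 ± 0.55 and Tfcp2l1 −0.98 ± 0.59. Prdm14 had 1 insertion, under the 3 needed for the test, and a value of −2.13 ± 1.45. The 95% interval of the Esrrb value ran from −0.32 to 1.08, below its value of 3.11 in the repressor screen. That of Tfcp2l1 ran from −2.15 to 0.18, below its 1.34 there. With 1 to 17 insertions per member the intervals were wide, and gains within them could not be told from no change. Depletion was called for 0 members by Fisher's exact test and DESeq2, which called 0% of genes, and by edgeR, which called 0.0667%, with 1 member (Sall4) at an unadjusted p under 0.05 in Fisher's test. The sense share differed for 14% of genes tested and 0 of 7 members, and exon use for 12.7% and 0 of 4.

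A pattern at Esrrb in the activator screen was chosen after its values were seen and is given without a test. Exon 5 follows the exon to which most insertions were assigned in the repressor screen. It was assigned to 6 of 17 activator-sorted insertions (35.3%), 3 of 10 and 3 of 7 in the separate libraries, against 7 of 416 (1.68%) in the background. Per 10000 this was 1.88 ± 0.223 (SD, n = 2) against 0.0618 ± 0.0774 (SD, n = 6), and 1.23 ± 0.805 in repressor-sorted cells, where 5 of 131 insertions were at exon 5. The 6 and 5 positions shared 1 between the screens.

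The screens themselves were compared by the difference of their sorted-minus-unsorted log2 fold changes, each screen against its own unsorted libraries, in 1 edgeR fit of all 12 libraries. Between the repressor and the activator screen, Esrrb differed by 2.79 (adjusted p = 2.15e-06) and Tfcp2l1 by 3.17 (adjusted p = 6.87e-05), where 8.21% of genes differed. Between the PTGR and the repressor screen, Esrrb differed by −5.63 (edgeR, adjusted p = 4.13e-15), Tfcp2l1 by −4.08 (5.69e-09) and Pou5f1 by 2.04 (0.0141), where 6.46% of genes differed. Between the PTGR and the activator screen, Esrrb differed by −2.84 (adjusted p = 0.00193) and Pou5f1 by 2.13 (0.0131), where 3.93% of genes differed. Tfcp2l1 gave −0.92 there (adjusted p = 0.823). The remaining members differed in 0 of the 3 pairs.

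The differences at Pou5f1 were the least stable of these. The one against the activator screen was lost without PTGR sorted replicate 1 (adjusted p = 0.0764), activator sorted replicate 1 (0.0812) or activator sorted replicate 2 (0.112), and the one against the repressor screen without PTGR sorted replicate 1 (0.0581), repressor sorted replicate 1 (0.0629) or repressor sorted replicate 2 (0.0848). Esrrb's difference between the PTGR and the activator screen was lost without PTGR sorted replicate 2 (0.0993), and Tfcp2l1's between the repressor and the activator screen without repressor sorted replicate 1 (0.0519).

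The members differ in how far a fusion at the exon the cassettes reach would keep the protein. At Prdm14 exon 2 and at all exons 2 to 5 of Zfp42, 0 codons lie upstream. The same holds at the Tbx3 exon 2 start that took 437 of 491 background insertions. An in-frame fusion at these exons would place the tag before the whole reading frame. Another start numbered exon 2 at Tbx3, with 12 background insertions, has 129 codons (18.0%) upstream. At Nanog 391 of 401 background insertions were assigned to an exon 2 of another transcript than the one counted here. These 4 genes and Sall4 were not called enriched in any screen.

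Other genes around the core network were listed by role. Enrichment was tested only for genes with at least 3 sorted insertions. Of all genes tested, 4.64% (activator), 8.18% (repressor) and 0.666% (PTGR) were called. Of 24 further naive pluripotency factors, 22 were in the tables, and 2 were called enriched in the repressor screen: Zfx, a zinc-finger activator needed for self-renewal (217 sorted and 193 background insertions, log2 odds ratio 4.95 ± 0.14), and Nacc1, a BTB-domain partner of Nanog and Oct4 (19 and 94, 2.46 ± 0.36). Of the 22, 9 were tested in the repressor screen. In the activator screen 9 were tested and 0 were called. Of the 16 genes of the LIF, BMP and Wnt inputs to the network, 4 (activator), 3 (repressor) and 12 (PTGR) were tested. Of these, 0 were called enriched in any screen, which at the shares above says little about these genes. Of 12 formative and primed state factors, 9 were in the tables and 5 were tested in the repressor screen. Grhl2, a grainyhead-like factor of epithelial genes, was called there (52 and 355, 2.00 ± 0.21). Of 15 lineage factors, 14 were in the tables and 5 were tested in the activator screen. Sox17 (7 and 15, 3.89 ± 0.66) and Sox7 (13 and 6, 6.11 ± 0.71), which are SOX factors of the endoderm, were called there.

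Among 35 close relatives of the members by protein family, 30 were in the tables. Of these, 8 (activator), 12 (repressor) and 21 (PTGR) were tested. In the repressor screen 3 of the 12 were called, where 8.18% of all genes tested were, and in the other screens 0 were called. Ubp1 (8 and 8, 4.77 ± 0.72) and Grhl2 belong to the grainyhead-like factors, as Tfcp2l1 does, and Sox13 (51 and 353, 1.98 ± 0.22) is a SOX factor. Tfcp2, which with Ubp1 and Tfcp2l1 makes up the CP2 branch, had 4 sorted and 42 background insertions in the repressor screen (1.38 ± 0.75; Fisher's exact test, adjusted p = 0.472) and was not called. The relatives of Esrrb had few landing sites, with 3 background insertions at Esrra and 12 at Esrrg, and 0 sorted insertions at both in the repressor screen, which allows up to 3. In the 5 lists 0 genes were called depleted in any screen, where 0% (activator), 0.0831% (repressor) and 0.0914% (PTGR) of all genes tested were. The genes called depleted had at least 378 background insertions. For list genes with few, such as Stat3 (21) and Lef1 (30), the lack of a call says little.

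The members with at least 100 background insertions, which are all 8, had median log2 odds ratios of −0.48 in the activator, −0.56 in the repressor and −0.70 in the PTGR screen, beside medians over all such genes of −0.73, −1.34 and −0.20. Those of the naive factors were −0.99, −1.98 and −0.46 (n = 12), and those of the family relatives −0.72, −0.56 and −0.00063 (n = 8). The medians of the LIF, BMP and Wnt inputs (n = 7), the formative factors (n = 5) and the lineage factors (n = 3) were between −1.45 and −0.82 in the activator, between −2.37 and −1.09 in the repressor and between −0.18 and −0.09 in the PTGR screen.

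The genes most like each called member were found by Pearson's r of log2 of insertions plus 1 per 10000 over the 12 libraries, among 9731 genes with at least 20 insertions. For Esrrb these were Cbx1 (0.953), Zfp870 (0.934) and Zfp1 (0.920). For Tfcp2l1 they were Rarg (0.902) and Chfr (0.886), and for Pou5f1 Gm5485 (0.965), Smg5 (0.928) and Trim25 (0.922). These r describe likeness over libraries that share screen and depth, and r was lower for the genes most like Tfcp2l1 than for those most like the other two.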

How the data were processed

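The authors mapped cassette insertions by inverse PCR and sequencing, trimmed reads with Trim Galore 0.6.0, aligned them to mm10 with Bowtie2 and removed those with mapping quality of 30 or less with SAMtools 1.9. Each insertion was given to the next non-first exon downstream of it in GENCODE vM25. They deposited 24 insertion lists (12 libraries, sense and reversed) and 3 pooled tables per gene, whose odds ratios and p-values were not used. Here each position was counted once per library, so the values are counts of insertions per gene, made from the deposited lists, up to 200 kb from the exon. Counts equalled the deposited pooled ones for all 8 members except for the PTGR-sorted counts, where 1 of 8 did. In PTGR sorted replicate 2, 12.8% of the listed rows repeat a position, and in each repressor unsorted library 50.0% do. Whether repeated rows are the reason for the unequal PTGR-sorted counts was not tested.

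Fisher's exact tests (SciPy 1.17.1) compared merged sorted libraries with the 6 merged unsorted ones, for enrichment over genes with at least 3 sorted insertions and for depletion over genes with at least 10 background insertions. Exon use and sense share were tested two-sided over genes with at least 10 sorted insertions, at adjusted p under 0.05, as were edgeR 4.0.16 and DESeq2 1.42.0 (R 4.3.3), which were fitted to the separate libraries. The tests were checked on simulated data. The labels do not say that replicates were separate cultures, while the study reports 2 biological replicates per screen. Fisher's p-values on merged libraries cover counting error only. Those of edgeR and DESeq2 also cover the spread between these libraries. Reads carried no molecular identifiers, and intervals cover counting error only. The alternatives changed the background, distance, minimum counts, threshold, test, replicate block and the libraries left out. Codons and sequences were taken from GENCODE vM21 on GRCm38, in which the exon starts of all 3517 member insertions were found. Named genes are the members, genes of the lists that were called enriched, and the 3 genes most like each called member. Some genes this rule names are not reported here. Members and lists were chosen with earlier results of these data known.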

Additional observations from a re-analysis of the deposited data

Results flagged for a closer look

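Sall4 held 7.40 sense insertions per 10000 in PTGR unsorted replicate 2 (40 of 54088), and 3.64 to 4.50 in the other 5 unsorted libraries, a gap that set this library apart from its group. This was found for 1 of 8 members tested, and chance sets apart about 1 group in 20. That library is the shallowest of the unsorted ones.

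The response to sorting differed between screens at 3 members, by the edgeR test of the difference itself. Esrrb differed by 2.79 on the log2 scale between the repressor and activator screens, by −5.63 between the PTGR and repressor screens and by −2.84 between the PTGR and activator screens. Tfcp2l1 differed by 3.17 between the repressor and activator screens and by −4.08 between the PTGR and repressor screens. Pou5f1 differed by 2.13 between the PTGR and activator screens and by 2.04 between the PTGR and repressor screens. Reporter, tag, sorting scheme and clonal line all changed between the PTGR screen and the others, so their parts cannot be told apart.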

How the results depend on the processing

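Of 1093 member values under the alternatives, 1071 kept their side of the threshold, 21 lost a call, 1 gained one and 0 called values changed sign. The enrichment of Esrrb in the repressor screen and of Pou5f1 in the PTGR screen kept its call in all alternatives run. The count of members enriched in the repressor screen was 2 and ranged from 1 to 2 over the libraries left out. The count depleted in the PTGR screen was 2, but 1 (Esrrb) with the screen's own background, with positions within 5 bp merged, with positions shared with another screen left out or with reversed insertions, 0 with DESeq2, 0 with reversed insertions against the screen's own background, and 0 with either PTGR sorted replicate left out. With 1 sorted library left out, members that differed between screens numbered 1 to 2 (repressor minus activator, 2 with all libraries), 1 in each case (PTGR minus activator, 2) and 2 to 3 (PTGR minus repressor, 3). Adding the replicate block to edgeR changed no call of a member (PTGR decrease at Esrrb, adjusted p = 0.0265, and Tfcp2l1, 0.0238), and deviations of same-numbered libraries correlated at 0.059 (activator), −0.0018 (repressor) and 0.239 (PTGR) over 3475 genes, so the numbers were not taken as pairs.

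Over all genes, the depleted count moved in the repressor screen from 10 to 22 (minimum of 20), 3 (5 bp), 32, 22 and 18 (edgeR without and with block, DESeq2), 0 (reversed, with either background) and 0 and 1 (a library left out), in the activator screen from 0 to 2 (edgeR), and in the PTGR screen from 11 to 3 (own background), 6 (50 kb), 7 (5 bp), 4, 4 and 0 (edgeR without and with block, DESeq2), 2 (reversed, own background) and 0 and 1 (a library left out). PTGR enrichment moved from 62 to 40 (own background), 38 and 39 (edgeR), 26 (DESeq2) and 121 (adjusted p under 0.05), reversed enrichment from 125 to 72 (repressor, 50 kb) and from 46 to 29 (PTGR, own background), exon use from 38 to 16 (without activator sorted replicate 2), 53 to 28 (without repressor sorted replicate 1) and 22 to 5 and 11 (PTGR, own background and 5 bp), and sense share from 295 to 183 (without repressor sorted replicate 1) and 69 to 31, 42 and 41 (PTGR, own background and each sorted library left out). The 5 bp merge, the left-out shared positions and the edgeR, DESeq2 and reversed depletion tests were chosen after seeing the data. The cause of these changes was not tested. Depth limits the activator and repressor screens most, with 0 to 25 sorted insertions per member and library outside Esrrb.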
